A study of Mus musculus with 20 samples.

Results

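The 8 genes described here encode the melanocortin system of the mouse hypothalamus: the peptide precursors Pomc and Cartpt, the enzymes Pcsk1, Pcsk2 and Cpe that process peptide precursors, the receptors Mc3r and Mc4r, and the transcription factor Nhlh2. They were taken by name, whatever their values, from the 54532 genes of the count table, and each symbol matched 1 Ensembl identifier. The study profiled RNA from the hypothalamus of male C57BL/6J mice to ask how a glycation-lowering diet, named Gly-Low, and age alter transcripts, with a control diet as the comparator. Its acute arm held 4 acute Gly-Low and 5 acute control libraries, both from mice 4 months old after 1 week on their diet. The ageing arm held 3 old Gly-Low and 4 old control libraries, both from mice 25 months old after 5 months on their diet, and 4 young control libraries from mice 3 months old after 1 week of control diet. No group carried a mutation or transgene. The labels do not state that every library is from its own animal, so p-values measure only the spread between these samples, which may be technical. The 3-month and 4-month control groups differ in arm as well as age.

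Neurons of the arcuate nucleus make the Pomc precursor, which the convertases encoded by Pcsk1 and Pcsk2 cut and carboxypeptidase E trims to melanocyte-stimulating hormones. These peptides act through Mc3r and Mc4r to lower food intake and raise energy expenditure, and Agrp, made by neighbouring arcuate neurons, blocks the same receptors. In the pituitary, which lies against the base of the hypothalamus, corticotropes and melanotropes make Pomc at very high levels, so pituitary tissue in a hypothalamic sample can carry Pomc RNA.

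The 20 libraries held between 15848372 and 27399753 counts. Levels are given as CPM after TMM scaling over the 20 libraries. Mitochondrial transcripts took 17.0% to 23.3% of the counts in acute Gly-Low libraries and 5.35% to 9.11% in acute control libraries. The length slope says by how much the log2 CPM of genes in a library, set against the mean of the 20 libraries, changed per doubling of transcript length. It ran from −0.43 to −0.23 in acute Gly-Low and from 0.14 to 0.23 in acute control, so short transcripts held more of the acute Gly-Low libraries. In the ageing arm the slope ran from 0.08 to 0.29 in old Gly-Low, from −0.20 to 0.16 in old control and from −0.27 to 0.22 in young control. Of 19 genes that mark the hypothalamus, 1, Kiss1, had no count in any library and the other 18 were detected in every library, with Pmch, Avp and Oxt the most abundant. Their summed level ran from 1493 to 2634 CPM in acute Gly-Low, 513 to 1303 in acute control, 794 to 1113 in old Gly-Low, 830 to 1455 in old control and 1048 to 2081 in young control. The higher sum of acute Gly-Low came from peptide genes: of the 18 detected, 8 peptide genes, Pmch, Avp and Oxt among them, lay above every acute control, while the transcription factors Nkx2-1, Six6, Otp, Nr5a1 and Fezf1 lay below every acute control. The other 5, Six3, Rax, Sim1, Npy and Hcrt, overlapped. Of all 17161 genes tested in the acute arm, 46.9% had ranges apart, 23.9% with acute Gly-Low below. Nkx2-1 ran from 1.17 to 3.59 CPM in acute Gly-Low and from 5.38 to 14.0 CPM in acute control, and Fezf1 from 8.75 to 14.5 and from 24.2 to 33.6 CPM in the same groups.

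The promoters of 4 members are shown for their roles: the peptide genes Pomc and Cartpt, and Pcsk1 and Pcsk2, whose enzymes cut the Pomc precursor. Each window runs from 250 bases before to 50 bases after the transcript start in RefSeq (GRCm38.p6, 300 bases, 5′ to 3′ on the gene's strand). Capitals mark 2 motifs: the E-box CANNTG, the kind of site bound by basic helix-loop-helix factors such as Nhlh2, and the cAMP response element TGACGTCA. Both motifs read the same on either strand, so both strands were searched. The windows are chr12:3954695-3954994 (+) for Pomc, chr13:99900634-99900933 (−) for Cartpt, chr13:75089607-75089906 (+) for Pcsk1 and chr2:143545883-143546182 (+) for Pcsk2.
Pomc: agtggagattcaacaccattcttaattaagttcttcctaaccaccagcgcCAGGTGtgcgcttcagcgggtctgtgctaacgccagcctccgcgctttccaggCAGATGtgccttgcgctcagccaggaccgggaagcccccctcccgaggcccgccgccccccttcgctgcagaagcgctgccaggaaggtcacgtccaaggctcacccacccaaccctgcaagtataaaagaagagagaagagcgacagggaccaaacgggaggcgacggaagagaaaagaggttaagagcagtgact
Cartpt: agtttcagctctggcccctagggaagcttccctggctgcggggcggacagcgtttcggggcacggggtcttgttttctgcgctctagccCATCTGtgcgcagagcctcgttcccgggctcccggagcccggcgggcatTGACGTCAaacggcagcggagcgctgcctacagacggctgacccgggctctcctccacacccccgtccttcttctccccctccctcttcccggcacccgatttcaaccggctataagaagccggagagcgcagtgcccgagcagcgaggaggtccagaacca
Pcsk1: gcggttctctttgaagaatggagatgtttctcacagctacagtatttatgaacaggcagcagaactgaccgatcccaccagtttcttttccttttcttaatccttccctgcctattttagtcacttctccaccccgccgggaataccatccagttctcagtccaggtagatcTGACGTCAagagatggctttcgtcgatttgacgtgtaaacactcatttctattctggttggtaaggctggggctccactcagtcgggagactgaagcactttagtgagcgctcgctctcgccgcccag
Pcsk2: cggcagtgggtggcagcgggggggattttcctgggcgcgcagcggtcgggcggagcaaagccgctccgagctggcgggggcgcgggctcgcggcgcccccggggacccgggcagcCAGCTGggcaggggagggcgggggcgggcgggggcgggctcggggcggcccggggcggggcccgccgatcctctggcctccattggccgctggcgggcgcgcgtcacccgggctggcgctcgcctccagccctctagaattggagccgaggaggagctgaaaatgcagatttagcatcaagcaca
The Pomc window held E-boxes at −200 and −147 from the start, the Cartpt window 1 at −161 and the Pcsk2 window 1 at −135. The cAMP response element was found at −112 in Cartpt and −78 in Pcsk1. The RefSeq table had a promoter for 6 of the 8 members, those 4, Mc3r and Nhlh2. An E-box was present in 5 of the 6, all but Pcsk1, and in 72.3% of the 32851 promoters of the table. TGACGTCA was present in 2 of the 6 and in 1.79% of all promoters. A match is only a match of letters in this window.

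Compared per length of transcript, as RPKM, which divides CPM by the transcript length in kilobases, the members covered a wide range over the 20 libraries. Cpe, carboxypeptidase E, was highest with a median of 1185 RPKM, followed by Cartpt with 93.1 and Pomc with 74.5. The convertases Pcsk2 and Pcsk1 had medians of 58.3 and 29.6 RPKM. The receptors and the transcription factor were lowest, with 4.39 RPKM for Mc3r, 4.03 for Nhlh2 and 1.78 for Mc4r. Pomc varied most, with a highest library 116 times its lowest, whereas the highest Nhlh2 library was 1.57 times its lowest. In counts, Mc3r had 37 to 90 and Mc4r 57 to 76 reads per library in acute Gly-Low, the lowest depth of any member. Counting error weighs most on these 2 receptors.

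**Figure D1:**
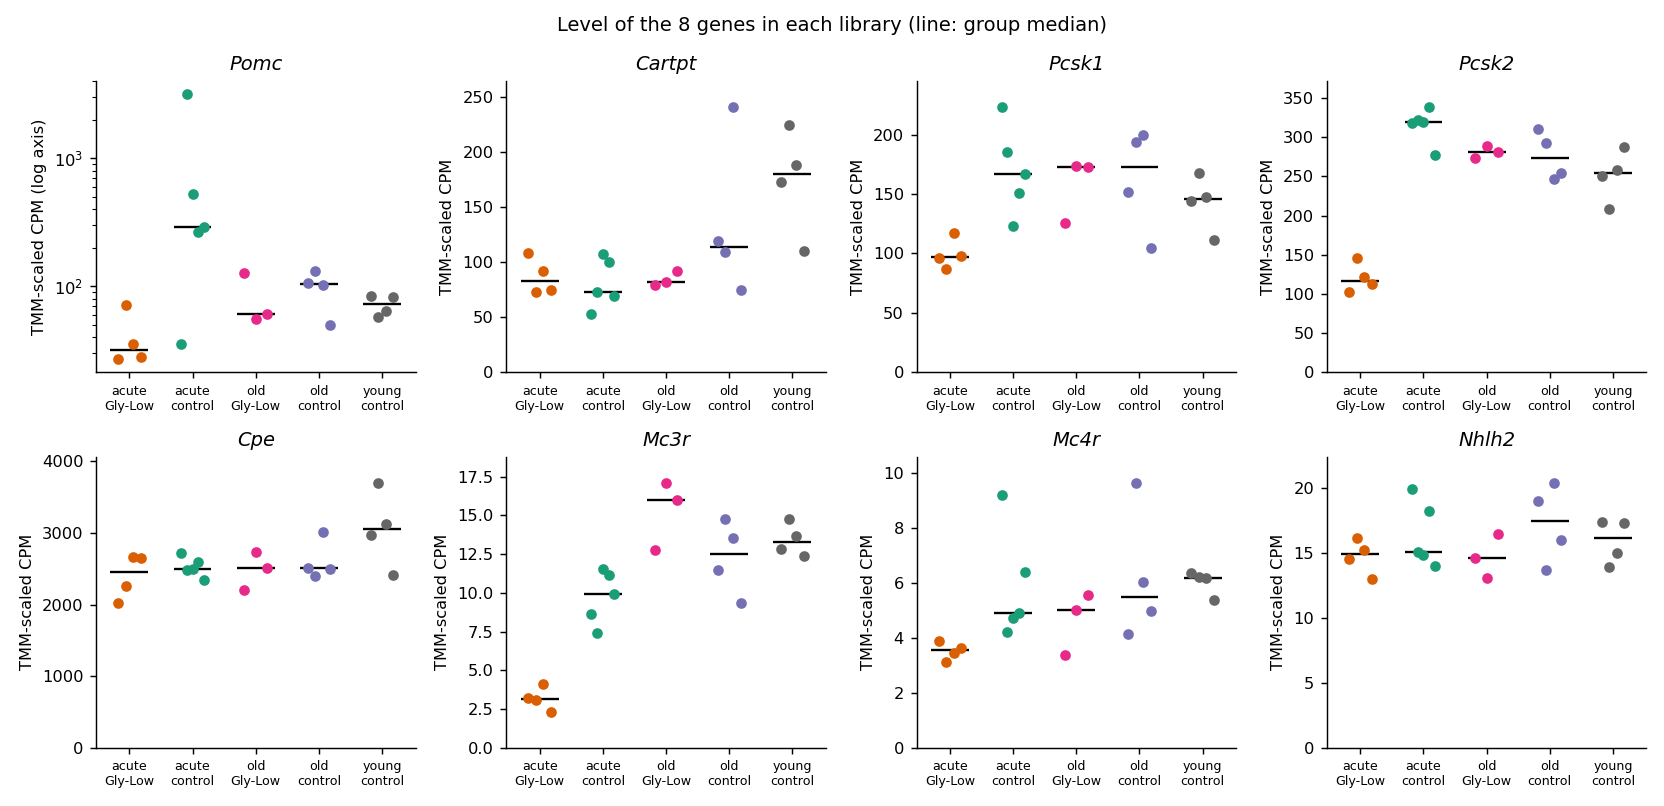
Level of each gene in each library, as TMM-scaled CPM on a linear axis from 0 (Pomc on a log axis), by group; each point is a library and each line the group median. Pcsk2 and Mc3r of the 4 acute Gly-Low libraries lie below all other libraries, at most 146 and 4.09 CPM, and Pomc is spread widest in acute control, from 35.5 to 3161 CPM.

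After 1 week of Gly-Low at 4 months of age, hypothalamic libraries had lower transcript levels of 5 of the 8 genes: Pomc, the melanocortin precursor, both convertases Pcsk1 and Pcsk2, and both receptors Mc3r and Mc4r. None was higher, and Cartpt, Cpe and Nhlh2 did not pass the test. Mc3r and Pcsk2 were called in all 18 alternative fits, whereas Pomc was 0.16 on the log2 scale against acute control 1 alone, and Pcsk1 (−0.05, adjusted p = 0.856 by edgeR) and Mc4r (adjusted p = 0.118) lost their calls once transcript length was adjusted for. The 5 were called by edgeR's quasi-likelihood test at a Benjamini-Hochberg adjusted p under 0.05, which called 58.3% of the 17161 genes tested, 27.8% higher and 30.5% lower. The members' median log2 fold change was −0.74, against −0.07 for all genes tested. In bulk tissue, fewer cells that express a gene and less RNA per cell cannot be told apart.

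Pomc (ENSMUSG00000020660, chromosome 12, 3954951 to 3960642, plus strand, in GRCm38) had 27.1, 71.0, 35.2 and 27.9 CPM in acute Gly-Low libraries 1 to 4, against 35.5, 3161, 529, 264 and 292 CPM in acute control libraries 1 to 5. Acute control 1 fell within the acute Gly-Low range and the other 4 acute controls lay above it, so the groups overlapped. The log2 fold change was −4.37 ± 0.96 (SE) with an adjusted p of 0.00126 by edgeR's quasi-likelihood test. Without acute control 2, the highest library, it was −2.77 (adjusted p = 0.000761).

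The acute controls differed in pituitary transcripts. The summed level of 12 anterior lobe genes was 94.7, 245, 112 and 55.9 CPM in acute Gly-Low libraries 1 to 4, against 20.3, 61530, 3740, 370 and 32672 CPM in acute control libraries 1 to 5. Acute controls 2, 3 and 5 stood above all other libraries of the study and acute control 1 was the lowest of the 20. Gh, the growth hormone gene of somatotropes and the most abundant gene of the list, had 69 reads in acute control 1 and 1370507 in acute control 2. In acute controls 2 and 5 none of the 12 genes was at 0, against 5 of 12 in acute control 1 and 2 to 4 of 12 in acute Gly-Low, and Pou1f1, which specifies somatotropes, was at 0 in all 4 acute Gly-Low libraries.

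Markers of the pituitary cells that make Pomc also differed between the acute controls. Tbx19, the factor that specifies corticotropes and melanotropes, had 8, 0, 5 and 3 reads in acute Gly-Low libraries 1 to 4, against 27, 222, 62, 47 and 69 reads in acute control libraries 1 to 5. Oacyl, another gene of that list, had 13, 10, 3 and 1 reads in acute Gly-Low and 0, 738, 74, 47 and 34 reads in acute control. Pax7 had 7, 5, 12 and 0 reads in acute Gly-Low and 4, 46, 8, 4 and 6 in acute control. Pitx1 had 11, 0, 0 and 0 reads in acute Gly-Low and 0, 50, 12, 0 and 33 in acute control. In CPM, Tbx19 of acute Gly-Low, at most 0.487, lay below every acute control and the other 3 genes overlapped. Tbx19 of acute Gly-Low also lay below every library of the ageing arm, which ran from 1.26 to 3.29 CPM. The summed level of the 4 corticotrope and melanotrope genes was 2.37, 0.820, 0.910 and 0.247 CPM in acute Gly-Low libraries 1 to 4, against 1.47, 39.8, 6.23, 3.47 and 5.89 CPM in acute control libraries 1 to 5. The 5 acute controls stood in the same order by this sum as by Pomc. By the anterior lobe sum the order differed in acute controls 3 and 5. How much of the Pomc RNA came from pituitary cells was not tested.

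**Figure D2:**
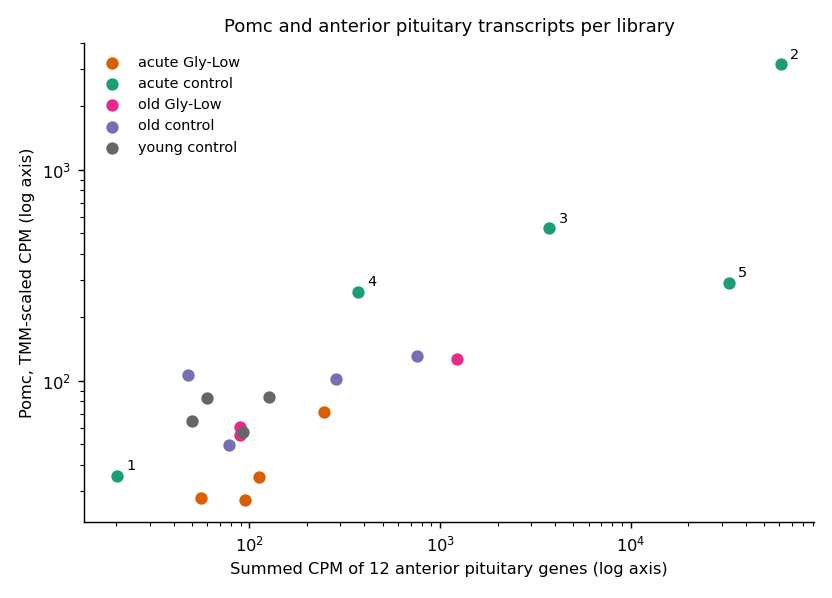
Pomc level (TMM-scaled CPM) against the summed CPM of 12 anterior pituitary genes, both on log axes, with 1 point per library coloured by group; digits mark the acute control libraries. Acute control 2 is highest on both axes, and acute control 1, at 35.5 CPM of Pomc, has the lowest pituitary sum, 20.3 CPM.

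With the pituitary-rich libraries left out the Pomc difference shrank. Without acute controls 2, 3 and 5 the log2 fold change was −1.92 (adjusted p = 0.00938). With acute control 1 as the only acute control it was 0.16 (adjusted p = 0.821), a fit in which the lone control is assumed to vary like the other group. The direction of Pomc in the acute comparison therefore rested on acute controls 2 to 5.

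Pcsk2 (ENSMUSG00000027419, chromosome 2, 143546156 to 143816285, plus strand, 12 exons) encodes the convertase that carries Pomc processing on to the melanocyte-stimulating hormones. It had 102, 146, 122 and 112 CPM in acute Gly-Low libraries 1 to 4, against 318, 323, 320, 338 and 277 CPM in acute control libraries 1 to 5. Every acute Gly-Low library lay below every acute control. Acute control 1, poorest in pituitary transcripts, had 318 CPM, and acute control 2, the richest, had 323 CPM. The part of pituitary tissue in the Pcsk2 levels was not tested. The log2 fold change was −1.37 ± 0.14 (SE, adjusted p = 1.23e-06 by edgeR's quasi-likelihood test). It remained past the threshold in all 18 alternative fits, from −1.48 to −0.70. Pcsk2os1 and Pcsk2os2 lie antisense within the locus, with at most 198 and 19 reads in any library, and the libraries were non-directional, so reads of the 2 strands cannot be told apart.

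Pcsk1 (ENSMUSG00000021587, chromosome 13, 75089826 to 75134861, plus strand, 14 exons) encodes the convertase that makes the first cuts in the Pomc precursor. It had 96.3, 87.1, 117 and 98.2 CPM in acute Gly-Low libraries 1 to 4, against 223, 185, 123, 151 and 167 CPM in acute control libraries 1 to 5. The ranges did not overlap, though the highest acute Gly-Low library, 3, and the lowest acute control, also 3, were close. The log2 fold change was −0.75 ± 0.17 (SE, adjusted p = 0.00134 by edgeR's quasi-likelihood test). With an offset for transcript length it was −0.05 (adjusted p = 0.856 by edgeR), and with that offset and without acute controls 2, 3 and 5 it was −0.30 (adjusted p = 0.284).

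Mc3r (ENSMUSG00000038537, chromosome 2, 172248492 to 172251114, plus strand, 1 exon) encodes the melanocortin receptor found on arcuate neurons, Agrp neurons among them. It had 3.23, 3.06, 4.09 and 2.28 CPM in acute Gly-Low libraries 1 to 4, against 8.66, 7.42, 11.5, 11.1 and 9.92 CPM in acute control libraries 1 to 5. The groups did not overlap, and the acute Gly-Low libraries were also the lowest 4 of all 20. The log2 fold change was −1.60 ± 0.23 (SE, adjusted p = 3.61e-05 by edgeR's quasi-likelihood test). The call was present in all 18 alternative fits, from −1.75 to −1.47.

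Mc4r (ENSMUSG00000047259, chromosome 18, 66857704 to 66860506, minus strand, 1 exon) encodes the receptor whose loss causes obesity. It had 3.90, 3.12, 3.46 and 3.64 CPM in acute Gly-Low libraries 1 to 4, against 9.18, 4.22, 4.71, 4.89 and 6.39 CPM in acute control libraries 1 to 5. The ranges were apart by a narrow gap, and acute control 1 was the highest of the 9. The log2 fold change was −0.72 ± 0.27 (SE, adjusted p = 0.0317 by edgeR's quasi-likelihood test). Only 10 of 18 alternative fits passed, with adjusted p from 0.00897 to 0.118, and the call was lost without acute Gly-Low 2, 3 or 4 or acute control 1 or 5 (adjusted p from 0.0579 to 0.0775). Without acute control 1 the log2 fold change was −0.49. With Mc3r, Pcsk1 and Pcsk2, Mc4r made 4 of 8 members whose ranges did not overlap between the acute groups, all with acute Gly-Low below, against 46.9% of all genes tested, 23.9% with acute Gly-Low below.

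The other 3 members did not pass in the acute arm, and their ranges overlapped between the groups. Cartpt (ENSMUSG00000021647, chromosome 13, 99898489 to 99901091, minus strand) encodes the anorexigenic peptide that arcuate Pomc neurons and other hypothalamic neurons make. It had 108, 73.0, 92.1 and 74.2 CPM in acute Gly-Low libraries 1 to 4, against 52.5, 72.6, 107, 100 and 68.7 CPM in acute control libraries 1 to 5, and the groups overlapped (log2 fold change 0.13 ± 0.19, adjusted p = 0.574 by edgeR). Cpe (ENSMUSG00000037852, chromosome 8, 64592542 to 64693054, minus strand, 9 exons) ran from 2017 to 2671 CPM in acute Gly-Low and from 2343 to 2713 CPM in acute control (−0.06 ± 0.15, adjusted p = 0.747). Nhlh2 (ENSMUSG00000048540, chromosome 3, 102010076 to 102015492, plus strand), a helix-loop-helix factor that acts on Pcsk1 and whose loss gives obesity in mice, ran from 13.0 to 16.2 CPM in acute Gly-Low and from 14.0 to 19.9 CPM in acute control (−0.14 ± 0.16, adjusted p = 0.465).

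**Figure D3:**
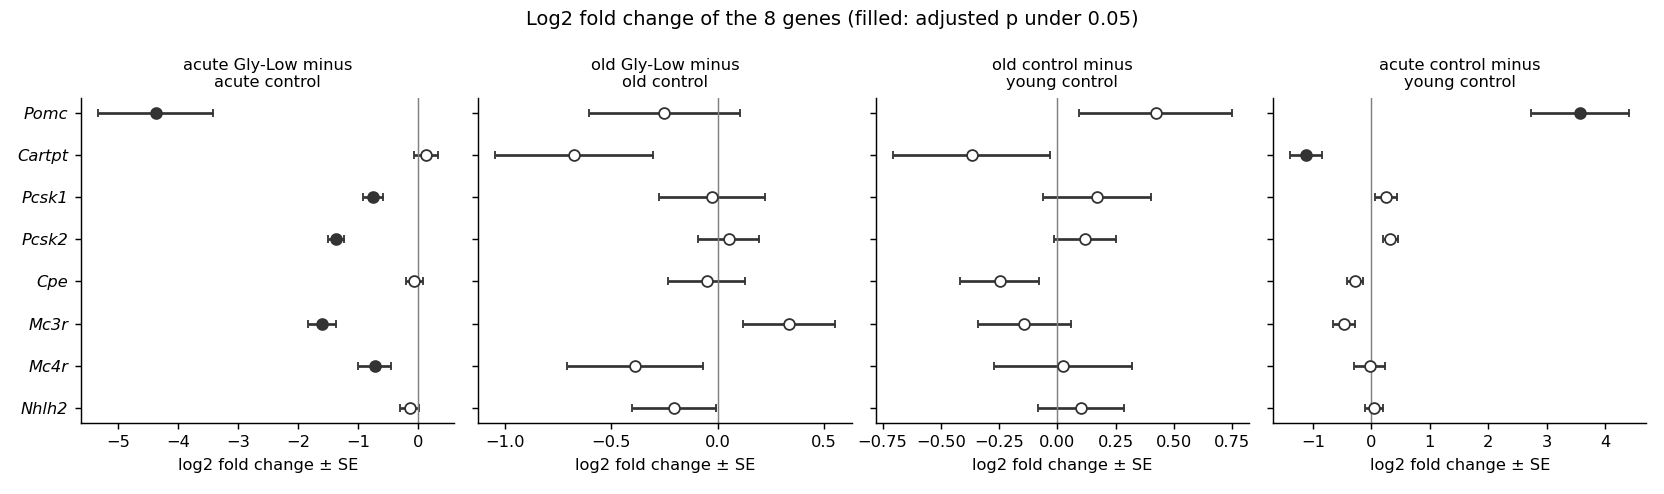
Log2 fold change of each gene with its standard error in the 4 comparisons between groups, filled where the adjusted p is under 0.05; each panel has its own scale. The acute diet panel has 5 filled points, all below 0, the old diet and age panels have none, and the panel of acute control minus young control has Pomc at 3.57 and Cartpt at −1.11.

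Since the acute groups differed in length slope without overlap, the comparison was also fitted with an offset from each library's trend over transcript length. The median transcript length was 1031 bases for Pomc, 1032.5 for Cartpt, 2117 for Cpe, 2623 for Mc3r, 2803 for Mc4r, 3761 for Nhlh2, 4723 for Pcsk2 and 5040 for Pcsk1. With the offset, 4 members passed, all lower, against 47.7% of genes in either direction and 23.9% lower. Pomc was −5.22 (adjusted p = 0.000548), Mc3r −1.47 (0.000107) and Pcsk2 −0.70 (0.000765) on the log2 scale. Cartpt turned to −0.76 and passed (adjusted p = 0.00353), so its direction depends on this setting. Pcsk1, the longest transcript, no longer passed, nor did Mc4r (−0.53, adjusted p = 0.118).

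The offset was also joined with leaving out acute controls 2, 3 and 5, the libraries richest in pituitary transcripts. Acute control 4, which stays in that fit, still had an anterior lobe sum above every acute Gly-Low library and more Tbx19 and Oacyl reads than any of them. Its Tbx19, at 1.67 CPM, was nevertheless below every young control, at 1.69 to 2.68 CPM. Its Oacyl, also 1.67 CPM, was above every young control, at 0 to 0.816 CPM, but below old Gly-Low 1, at 2.25 CPM. In that fit Mc3r was −1.53, Pcsk2 −0.86 (adjusted p = 0.00144), Pomc −2.77 (adjusted p = 0.000748) and Cartpt −0.73 (adjusted p = 0.0175). Mc4r (−0.81, adjusted p = 0.0802) and Pcsk1 did not pass. Without those libraries and without the offset, Pcsk1 was −0.93, Pcsk2 −1.47, Mc3r −1.66 and Mc4r −1.01 (adjusted p = 0.0248). Against acute control 1 alone, Mc3r was −1.47 (adjusted p = 0.013), Mc4r −1.41 (0.00897), Pcsk1 −1.19 (0.0015) and Pcsk2 −1.42 (0.000847). The lower Mc3r and Pcsk2 of acute Gly-Low were thus called in each of these settings.

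**Figure D4:**
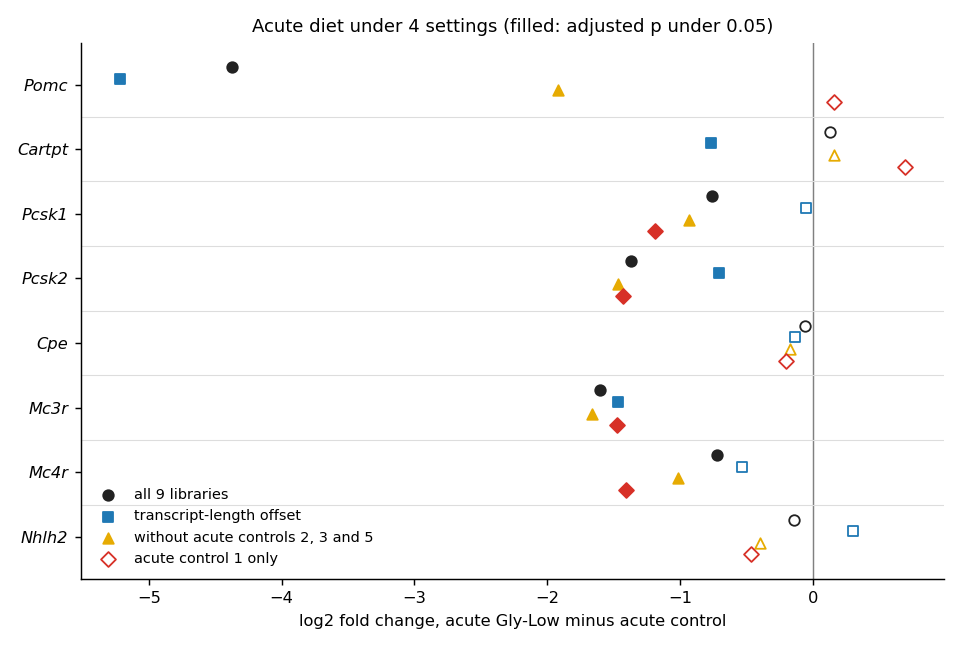
Log2 fold change of each gene, acute Gly-Low minus acute control, under 4 settings: all 9 libraries, a transcript-length offset, without acute controls 2, 3 and 5, and with acute control 1 as the only acute control. Filled symbols have an adjusted p under 0.05; Mc3r and Pcsk2 are filled in all 4, and Pomc moves from −4.37 with all 9 libraries to 0.16 against acute control 1.

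A ratio of 2 genes within a library needs no scaling between libraries, and the members of each pair have transcripts of similar length. Pcsk1 over Pcsk2 was 0.941, 0.596, 0.965 and 0.877 in acute Gly-Low libraries 1 to 4, against 0.701, 0.573, 0.384, 0.447 and 0.601 in acute control libraries 1 to 5. Acute Gly-Low 2 lay inside the acute control range and the other 3 lay above it. The mean log2 ratio differed by 0.65 (two-sided exact permutation p = 0.0476, 0.137 after adjustment over 12 ratio tests).

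Mc3r over Mc4r was 0.829, 0.983, 1.18 and 0.630 in acute Gly-Low, against 0.943, 1.76, 2.44, 2.27 and 1.55 in acute control, and acute control 1 alone lay inside the acute Gly-Low range. The mean log2 ratio differed by −0.95 (two-sided exact permutation p = 0.0476, adjusted 0.137). Pomc over Cartpt was 0.252, 0.973, 0.382 and 0.376 in acute Gly-Low, against 0.676, 43.6, 4.93, 2.64 and 4.24 in acute control, again with acute control 1 alone inside the range of the other group. Its log2 difference was −3.34 (two-sided exact permutation p = 0.0317, adjusted 0.137). None of the 12 ratio tests over the 4 comparisons had an adjusted p under 0.05. The smallest p this permutation test allows was 0.0159 for 4 against 5 libraries, 0.0286 for 4 against 4 and 0.0571 for 3 against 4. A lone ratio at that floor would not pass after adjustment over 12 tests, so the lack of a pass says little about the ratios.

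**Figure D5:**
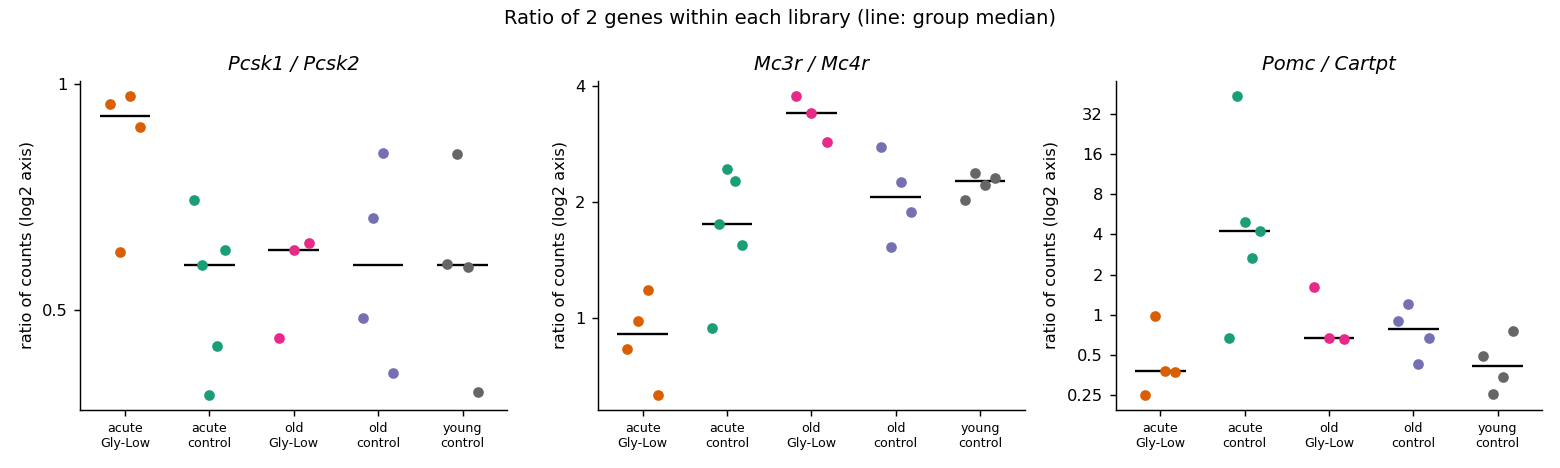
Ratio of Pcsk1 to Pcsk2, Mc3r to Mc4r and Pomc to Cartpt counts within each library, on log2 axes, by group; points are libraries and lines group medians. Mc3r over Mc4r has group medians of 0.906 in acute Gly-Low and 3.42 in old Gly-Low, the lowest and the highest of the 5 groups.

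Among 15 tested partners of melanocortin signalling, 3 were higher and 7 lower in acute Gly-Low, with a list median of −0.49, where 27.8% of all genes were higher and 30.5% lower with a median of −0.07. With the length offset 3 were higher and 4 lower, with a list median of −0.04. Agrp, the endogenous antagonist of both receptors, averaged 50.4 ± 19.2 CPM in acute Gly-Low and 9.21 ± 1.76 CPM in acute control (SD, n = 4 and 5; log2 fold change 2.47, or 1.21 with the length offset). Other annotated genes overlap the Agrp locus, some on the other strand. Atrn, attractin, averaged 48.5 ± 9.29 CPM in acute Gly-Low and 186 ± 17.5 CPM in acute control, a log2 fold change of −1.93, or −0.94 with the offset. Adcy3, an adenylyl cyclase of neuronal cilia, where Mc4r also resides, averaged 5.58 ± 0.780 CPM in acute Gly-Low and 26.6 ± 8.17 CPM in acute control, a log2 fold change of −2.23, or −1.54 with the offset. Mc1r and Mc2r were too low to test.

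Of 22 genes of peptide processing and secretory granules, 2 were higher and 13 lower in acute Gly-Low, with a list median of −1.01, against the same shares and median of all genes. With the length offset 3 were higher and 12 lower, with a list median of −0.48. The 3 with the smallest p were Sort1, the sorting receptor sortilin, at −1.59, Cpd, a carboxypeptidase related to Cpe, at −1.57 and Cadps, which primes dense-core vesicles, at −1.27. With the offset they were −0.76, −0.65 and −0.53 and still passed. Of 19 tested transcription factors and hormone-signalling genes of Pomc neurons, 1 was higher and 11 lower, with a list median of −0.63, and with the offset 1 was higher and 7 lower, with a list median of −0.40. Stat3, the effector of leptin signalling, had a log2 fold change of −1.88, Insr, the insulin receptor, −1.45 and Foxo1, a repressor of Pomc transcription, −1.24. With the offset Stat3 was −1.44, Insr −0.40 and Foxo1 −0.24, and Foxo1 no longer passed (adjusted p = 0.28 by edgeR).

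After 5 months of Gly-Low, at 25 months of age, no member passed the test. Of the 18281 genes tested 0% passed edgeR's test, and 3 passed with DESeq2. Of the 8 members 0 passed with either tool and 0 had an unadjusted p under 0.05, with adjusted p from 0.953 to 0.986 by edgeR. The members' median log2 fold change was −0.13, against 0.03 for all genes.

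Mc3r had 12.8, 17.1 and 16.0 CPM in old Gly-Low libraries 1 to 3, against 11.5, 14.7, 13.6 and 9.37 CPM in old control libraries 1 to 4, with a log2 fold change of 0.34 ± 0.21 (SE). Mc4r had 3.37, 4.99 and 5.57 CPM in old Gly-Low, against 4.13, 9.61, 6.01 and 4.97 CPM in old control (−0.39 ± 0.32). The groups overlapped for both receptors. Their ratio within a library was 3.78, 3.42 and 2.87 in old Gly-Low, against 2.78, 1.53, 2.25 and 1.88 in old control, with every old Gly-Low library above every old control. The exact permutation p was 0.0571, the smallest this design allows, and the adjusted p was 0.137.

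Pomc had 127, 55.4 and 60.3 CPM in old Gly-Low, against 106, 131, 102 and 49.5 CPM in old control (log2 fold change −0.25 ± 0.35). The highest library of each group, old Gly-Low 1 and old control 2, also had the highest anterior lobe sum of its group, 1232 and 757 CPM. By the corticotrope and melanotrope sum old Gly-Low 1 was again highest of its group, at 5.39 CPM. Old control 2 was not, with 2.65 CPM against 3.67 CPM in old control 3. The part of pituitary tissue in these Pomc levels was not tested. Cartpt had 79.0, 82.0 and 91.9 CPM in old Gly-Low, against 119, 109, 240 and 74.2 CPM in old control (−0.67 ± 0.37), with old control 3 far above the rest. Old control 3 also had the lowest length slope of the 7 old libraries, −0.20, and the highest mitochondrial share, 15.8%.

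The processing enzymes of the old groups lay close together. Pcsk2 ran from 274 to 290 CPM in old Gly-Low and from 247 to 311 CPM in old control (log2 fold change 0.05 ± 0.14). Pcsk1 ran from 125 to 174 CPM in old Gly-Low and from 105 to 200 CPM in old control (−0.03 ± 0.25). Cpe ran from 2197 to 2727 CPM in old Gly-Low and from 2404 to 3016 CPM in old control (−0.05 ± 0.18), and Nhlh2 from 13.1 to 16.5 and from 13.7 to 20.4 CPM in the same groups (−0.21 ± 0.20). Groups overlapped for all 8 genes, where 6.52% of all genes had ranges apart, 3.5% with old Gly-Low below. Of the pathway lists, 0 of 14 partners of melanocortin signalling, 0 of 22 processing genes and 0 of 19 Pomc neuron genes passed.

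The diet effect of the 2 arms was compared directly, as the acute difference minus the old difference in 1 fit on all 20 libraries. Pomc, Mc3r and Pcsk2 passed that test, which called 36% of 19061 genes, 16.8% with a lower value in the acute arm. Pcsk2 differed by −1.41 ± 0.18 (SE, adjusted p = 3.35e-05 by edgeR) and Mc3r by −1.93 ± 0.29 (adjusted p = 9.31e-05). Pomc differed by −4.15 ± 1.15 (adjusted p = 0.00866), but by −2.53 (adjusted p = 0.0169) without acute control 2, by −1.61 (adjusted p = 0.148) without acute controls 2, 3 and 5 and by 0.46 against acute control 1 alone. With the length offset the Pcsk2 value was −0.49 (adjusted p = 0.0974). Pcsk1 differed by −0.72 ± 0.29 (adjusted p = 0.0602) and did not pass, and Cartpt (0.80 ± 0.42, adjusted p = 0.146), Mc4r (−0.33 ± 0.40, adjusted p = 0.547), Nhlh2 (0.07 ± 0.23) and Cpe did not either. Age, duration of diet and arm all differ between these contrasts and cannot be told apart.

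Between 25 and 3 months of age on control diet, no member passed. The test called 6 of 18281 genes, or 0.0328%, all higher in old control, and 0 of the 8 members, of which 0 had an unadjusted p under 0.05. DESeq2 called 0 of the 8 as well. Pomc had 106, 131, 102 and 49.5 CPM in old control libraries 1 to 4, against 84.2, 57.1, 64.2 and 82.5 CPM in young control libraries 1 to 4. The groups overlapped through old control 4, the lowest of the 8 libraries, and the log2 fold change was 0.42 ± 0.33 (adjusted p = 0.763 by edgeR).

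Cartpt had 119, 109, 240 and 74.2 CPM in old control, against 173, 225, 188 and 110 CPM in young control (log2 fold change −0.37 ± 0.34, adjusted p = 0.799 by edgeR). Old control 3 was the highest of all 8 and young control 4 the lowest of its group. Cpe had 2508, 2404, 3016 and 2502 CPM in old control, against 2972, 3695, 3131 and 2418 CPM in young control (−0.25 ± 0.17). In Cartpt and Cpe alike, old control 3 and young control 2 led their groups, and those 2 libraries had the lowest length slopes of their groups, −0.20 and −0.27. The part of library make-up in these levels was not tested.

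Log2 fold changes of the other members with age lay between −0.14 for Mc3r and 0.17 for Pcsk1. Mc3r ran from 9.37 to 14.7 CPM in old control and from 12.4 to 14.8 CPM in young control, and Mc4r from 4.13 to 9.61 and from 5.36 to 6.34 CPM in the same groups. Pcsk2 ran from 247 to 311 CPM in old control and from 208 to 288 CPM in young control, and Pcsk1 from 105 to 200 and from 112 to 168 CPM. Ranges overlapped for all 8 members, against 5.74% of all genes with ranges apart, 2.96% with old control below. No gene of the 3 pathway lists passed, and Agrp was closest, with 14.5 ± 6.29 CPM in old control and 33.0 ± 8.40 CPM in young control (SD, n = 4 each; log2 fold change −1.22, adjusted p = 0.257 by edgeR).

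The 2 young groups on control diet differed in peptide genes. Acute control had higher Pomc and lower Cartpt than young control, 2 of 8 members, where the test called 5.29% of 19061 genes, 0.923% higher and 4.37% lower. Pomc had 35.5, 3161, 529, 264 and 292 CPM in acute control, against 84.2, 57.1, 64.2 and 82.5 CPM in young control, so 4 acute controls lay above and 1 below every young control. The log2 fold change was 3.57 ± 0.84 (SE, adjusted p = 0.024 by edgeR). The anterior lobe sum was 50.0 to 127 CPM in young control. Without acute controls 2, 3 and 5 the Pomc difference was 1.06 (adjusted p = 0.431), and against acute control 1 alone −1.02.

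Cartpt had 52.5, 72.6, 107, 100 and 68.7 CPM in acute control, against 173, 225, 188 and 110 CPM in young control. All 5 acute controls lay below all 4 young controls, the nearest being acute control 3 and young control 4, and the log2 fold change was −1.11 ± 0.28 (SE, adjusted p = 0.0282 by edgeR). Young control 4 also had the highest length slope of its group, 0.22. With the length offset the value was −0.68 (adjusted p = 0.102), and it also lost its call without acute control 1, 2 or 5 or young control 1, 2 or 3 (adjusted p from 0.0602 to 0.116). Pomc lost its call without acute control 2 or 5 or young control 1, 2 or 3 (adjusted p from 0.0547 to 0.0989).

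Mc3r did not pass between the young groups, with 7.42 to 11.5 CPM in acute control and 12.4 to 14.8 CPM in young control (log2 fold change −0.46 ± 0.19, adjusted p = 0.16 by edgeR), but its ranges did not overlap. Cartpt and Mc3r were the 2 of 8 members with ranges apart, both with acute control below, against 5.69% of all genes, 3.58% with acute control below. Pcsk2 had 277 to 338 CPM in acute control and 208 to 288 CPM in young control (0.33 ± 0.12, adjusted p = 0.119), and passed only when young control 4 was left out (0.40, adjusted p = 0.0348). The remaining members lay within −0.27 for Cpe and 0.25 for Pcsk1. From the pathway lists Agrp was lower in acute control, with a log2 fold change of −1.84 (adjusted p = 0.0116), and Cadps2, which primes dense-core vesicles, and Jak2, the kinase of the leptin receptor, were higher, by 0.78 and 0.51. With the length offset Agrp was −1.20 and still passed (adjusted p = 0.0419 by edgeR), while Cadps2 (0.53, adjusted p = 0.103) and Jak2 (0.22, adjusted p = 0.566) did not, and without acute controls 2, 3 and 5 0 genes passed between the young groups. Acute control and young control are of different arms and ages, which cannot be told apart here.

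Over the 5 groups, acute Gly-Low had the lowest median of 6 members: Pomc, Pcsk1, Pcsk2, Cpe, Mc3r and Mc4r. For Mc3r the group medians ran from 16.0 CPM in old Gly-Low through 13.3 in young control, 12.5 in old control and 9.92 in acute control to 3.14 in acute Gly-Low. Neighbouring groups overlapped in that order except acute control and acute Gly-Low. For Pcsk2 the order was 320 CPM in acute control, 282 in old Gly-Low, 274 in old control, 255 in young control and 117 in acute Gly-Low, and again only the last step had no overlap. For Cartpt it was 180 CPM in young control, 114 in old control, 83.2 in acute Gly-Low, 82.0 in old Gly-Low and 72.6 in acute control, with every pair of neighbours overlapping.

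For Pomc the medians were 292 CPM in acute control, 104 in old control, 73.4 in young control, 60.3 in old Gly-Low and 31.6 in acute Gly-Low, and neighbours overlapped throughout. For Mc4r they were 6.17 CPM in young control, 5.49 in old control, 4.99 in old Gly-Low, 4.89 in acute control and 3.55 in acute Gly-Low. Among neighbours only the last step had a gap, but old Gly-Low 1, at 3.37 CPM, lay inside the acute Gly-Low range of 3.12 to 3.90 CPM. Pcsk1 had medians of 173 CPM in both old groups, 167 in acute control, 146 in young control and 97.2 in acute Gly-Low, where acute Gly-Low 3 overlapped young control 4. Cpe medians lay between 2455 CPM in acute Gly-Low and 3052 in young control, and Nhlh2 medians between 14.6 CPM in old Gly-Low and 17.5 in old control.

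The genes most like each member were the 3 protein-coding genes with the highest Pearson correlation of log2 CPM over the 20 libraries, which share group, library make-up and length slope, so the values are a description. For Pomc they were Alox12e (0.86), Gh (0.85) and Sec16b (0.84), the second being the growth hormone gene of the pituitary list. For Cartpt they were Mif (0.93), Praf2 (0.92) and the neuropeptide gene Gal (0.91). For Mc3r they were the receptor genes Gpr101 (0.97) and Npsr1 (0.96) and Amigo2 (0.95). For Pcsk2 the first and second were Slc7a14 (0.99) and Cdh13 (0.98).

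For Pcsk1 the nearest genes were Canx (0.93), Hspa5 (0.92) and Nol11 (0.92), the first 2 being chaperones of the endoplasmic reticulum. Mc4r had lower values with Picalm (0.85), Rmc1 (0.85) and Caprin1 (0.84), as had Cpe with S1pr1 (0.87), Dhx15 (0.84) and Paqr8 (0.84). Nhlh2 had no gene above 0.71, its value with Tube1, followed by Zfp143 (0.68) and Slc40a1 (0.65).

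Markers of neighbouring tissue were compared once by their summed CPM. Genes of arcuate neurons other than the members, led by Pdyn, ran from 113 to 207 CPM in acute Gly-Low, 132 to 181 in acute control, 263 to 335 in old Gly-Low, 175 to 287 in old control and 251 to 399 in young control. Of the 10 detected, Agrp and Ghrh of acute Gly-Low lay above every acute control, Pdyn and Prdm12 lay below, and 6 overlapped. Over all genes tested in the acute arm, 46.9% had ranges apart, 23.9% with acute Gly-Low below. The counts of each marker list here are to be read against those shares. Genes of the paraventricular nucleus, where Mc4r acts, led by Avp, ran from 718 to 1558 CPM in acute Gly-Low, 303 to 647 in acute control, 388 to 630 in old Gly-Low, 484 to 967 in old control and 536 to 1143 in young control. Of these 7 genes, the peptide genes Avp, Oxt, Crh and Trh lay above every acute control in acute Gly-Low. Otp, a transcription factor of these neurons, lay below, with 4.93 to 6.05 CPM in acute Gly-Low and 6.28 to 14.0 CPM in acute control, and Sim1, another such factor, averaged 21.0 ± 2.93 and 27.2 ± 7.43 CPM in the same groups (SD, n = 4 and 5) and overlapped. Striatal genes ran from 34.3 to 42.1 CPM in acute Gly-Low and 46.5 to 77.7 in acute control, and from 35.6 to 94.9 over the ageing arm. Of the 6 striatal genes, Rgs9 of acute Gly-Low lay below every acute control and 5 overlapped. Thalamic genes ran from 9.46 to 40.7 CPM, cortical and hippocampal genes from 1.89 to 8.58 and choroid plexus genes from 33.5 to 70.0 over the 20 libraries. The thalamic sum was 19.2 to 40.7 CPM in acute Gly-Low and 13.65 to 22.3 in acute control. Of the 3 thalamic genes, Tnnt1 of acute Gly-Low lay above every acute control and 2 overlapped. Of the 8 choroid plexus genes, Ttr lay above, Kl and Clic6 lay below and 5 overlapped. All 5 cortical and hippocampal genes overlapped. The part of dissection in the members' levels was not tested.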

How the data were processed

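Poly-A RNA of mouse hypothalamus was sequenced from non-directional libraries, per the labels' protocols. The values deposited by the authors are raw counts of reads per gene. HISAT2 2.0.5, featureCounts 1.5.0-p3, DESeq2 1.20.0 and the build GRCm38 are listed, with no role, in the submitters' processing notes. Neither the strand setting nor the annotation release is given in the sources used here. All 20 columns were matched to samples by the description label. Symbols, positions and lengths came from GENCODE vM21 for 54495 of the 54532 genes, and promoters from RefSeq (GRCm38.p6).

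Each comparison was fitted on all genes with edgeR 4.0.16 in R 4.3.3 (filterByExpr by group, TMM, quasi-likelihood F test, Benjamini-Hochberg adjustment over the genes tested, threshold 0.05 with no minimum fold). The acute diet was fitted on its 9 libraries, the old diet and age on the 11 of the ageing arm, and the young groups and the difference of diet effects on all 20. The SE is the absolute log2 fold change divided by the square root of F. Ratios within a library (prior count 0.5) were compared by two-sided exact permutation tests in scipy 1.17.1, adjusted over 12 tests. Log2 CPM for likeness used a prior count of 2.

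Alternatives were DESeq2 1.42.0, its size factors, no low-count filter, an offset from each library's trend over 40 length bins, the replicate number as a block, a fit on all 20 libraries, leaving out libraries with pituitary transcripts or rich in short transcripts, another prior count for ratios, and leaving out each library. Acute control 1 as the only acute control, and the offset joined with leaving out acute controls 2, 3 and 5, were chosen after seeing the data.

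The members, the gene lists and the tests were chosen with earlier results of these data known. All 8 members are named whatever their values; of each pathway list, up to 3 genes with the smallest p. For likeness the rule takes 3 genes for each member, and 1 of them is not reported here. Of the lists, 1 gene, Asip, had no identifier in the table. The fits were tested on simulated counts with known changes.

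In old Gly-Low and old control, libraries that share a title number correlated at 0.253 to 0.417 in their deviations from their groups. The labels state no pairing of these samples, and the correlations do not establish one. The columns of old Gly-Low are numbered otherwise than its titles, and 0 of its libraries correlated best with their own number. For the acute groups the correlations ran from −0.04 to 0.00, and for old and young control from −0.05 to 0.60.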

Additional observations from a re-analysis of the deposited data

Results flagged for a closer look

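In 32 groups of 4 or 5 libraries (8 genes in each of 4 groups; old Gly-Low has too few), 2 had a library far from the others, where chance alone gives about 1 group in 20. Pomc in acute control 2 was 3161 CPM, and its gap to the next library was 0.842 of the group's range. This library also had the highest anterior pituitary sum of the study. Cpe in old control 3 was 3016 CPM, with a gap of 0.83 of the range. This library had the lowest length slope of the old groups.

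By the test of the difference itself, the diet effect differed between the arms for 3 of the 8 genes. That test called 36% of 19061 genes, 16.8% with a lower value in the acute arm. Values are on the log2 scale, as the acute effect minus the old effect. The value was −4.15 for Pomc (adjusted p = 0.00866 by edgeR), −1.93 for Mc3r (9.31e-05) and −1.41 for Pcsk2 (3.35e-05). For Pomc it was 0.46 against acute control 1 alone. With the length offset the Pcsk2 value was −0.49 (adjusted p = 0.0974 by edgeR) and did not pass. In the 4 acute Gly-Low libraries Mc3r and Pcsk2 lay below every acute control, as did 23.9% of all genes tested. In the 3 old Gly-Low libraries they overlapped the old controls, where 6.52% of all genes had ranges apart.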

How the results depend on the processing

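Over 819 alternative log2 values of the 8 genes and their ratios, 773 kept their side of the threshold with no change of sign of a called value, 31 lost and 5 gained a call, 5 changed sign with a call involved and 5 moved by more than the replicate spread. In 60 the sign differed where neither value passed. The acute Pomc value was 0.16 against acute control 1 alone, where the young-group value was −1.02 and the difference between arms 0.46. Acute Cartpt was −0.76 with the length offset and −0.73 with the offset and without acute controls 2, 3 and 5. Acute members past the threshold were 4 or 5 in every alternative run, but not always the same genes. Of 18 alternatives, Mc3r and Pcsk2 passed in 18, Pomc in 17, Pcsk1 in 16, Mc4r in 10 and Cartpt in 2. With the length offset the 4 were Pomc, Cartpt, Mc3r and Pcsk2. The cause of these moves was not tested.

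Genes past the threshold in the acute diet were 5202 with the offset and without acute controls 2, 3 and 5, and 5097 against acute control 1 alone, where fewer libraries enter. In the old diet DESeq2 called 3. For age the count was 388 with DESeq2, 11 with no low-count filter, 19 with the offset (17 higher, 2 lower), 120 in the fit on all 20 libraries (70 higher, 50 lower), 2 without young control 2 and old control 3, and 0 to 6 with 1 library left out. Between the young groups it was 1729 with DESeq2 (491 higher, 1238 lower), 241 with the offset, and 0 without acute controls 2, 3 and 5, with or without the offset, and against acute control 1 alone. It ran from 0 (without young control 2 or 3) to 3957 (without young control 4). Members past the threshold there were 1 with the offset, 0 without acute controls 2, 3 and 5 in either fit and 0 against acute control 1 alone, and ran from 0 to 3 with 1 library left out. For the difference between arms the count of genes was 4424 with the offset, 4506 without acute controls 2, 3 and 5 and 2641 against acute control 1 alone. Pcsk1 passed there in 4 alternatives, without acute Gly-Low 3, acute control 3, old control 2 or old control 3 (−0.83 to −0.81).

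Against acute control 1 alone the acute log2 ratio differences were 0.24 for Pcsk1 over Pcsk2, −0.10 for Mc3r over Mc4r and −0.64 for Pomc over Cartpt, and those of the young groups −1.24 for Mc3r over Mc4r and 0.68 for Pomc over Cartpt. That setting moved the median log2 value of all genes to −0.16 between the young groups, against 0.03, and to 0.12 for the difference between arms, against −0.10.

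The replicate block, a term for the title number, changed no call in the old diet comparison (Pomc −0.40, Cartpt −0.80). In every comparison the groups are known to share only a number. The block gave Mc4r −0.61 (adjusted p = 0.0858 by edgeR) in the acute diet, and 0 members and 0 genes past the threshold between the young groups. It changed no other call of a member. The depth of Mc3r and Mc4r, under 100 reads in each acute Gly-Low library, limits the precision of both.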
